A study of Rattus norvegicus with 12 samples.

Results

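A set of 8 striated muscle genes was followed in the fetal rat testis: Acta1, Actc1, Tnnc1, Tnnt2, Mylpf, Myl4, Ckm and Des. The genes were taken from a list of skeletal and cardiac muscle genes, and all probe sets annotated to them were used. Of the 8 genes, 7 had a probe set in the array annotation, with 12 probe sets among the 31099 on the array. Mylpf was not analysed here. Only 7 of the 12 probe sets were annotated to 1 gene: the 5 that name Actc1 name Acta2, the smooth muscle actin gene, as well, so that Actc1 could not be read on its own. The RNA came from testes of E16 rat embryos, in pools of about 10 testes, and was measured on 12 Affymetrix arrays. There were 2 arrays in each of 6 groups, the F1, F2 and F3 generations of a vinclozolin lineage and of a control lineage. The females that founded the vinclozolin lineage were injected intraperitoneally with vinclozolin, an anti-androgenic fungicide, at 100 mg/kg/day on days 8 to 14 of pregnancy, and the founders of the control lineage with sesame oil and DMSO on the same days. F1 embryos were in the womb during dosing, while F2 and F3 embryos came from later matings with no further dosing in the protocols. For F2 and F3 of the vinclozolin lineage the protocol text names control lines as the source of the mated animals, which is at odds with the titles; grouping went by the titles. Neither strain nor litter of origin was stated for the pools, so p-values measured the spread between pools.

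Striated muscle contracts when myosin thick filaments pull on actin thin filaments. Calcium starts this by binding troponin C, which through troponin I and troponin T frees the actin sites, creatine kinase keeps ATP supplied, and desmin filaments tie neighbouring sarcomeres together. The testis itself has smooth muscle in its vessels and, later in life, in the peritubular layer, and desmin and Acta2 are both found in smooth muscle.

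The genes did not move as a block. Skeletal alpha-actin (Acta1) was lower on all 6 vinclozolin arrays than on any control array, as were 7.73% of all tested probe sets. Acta1 was bright enough to be tested only by its control values. A pair of probe sets shared by cardiac actin and smooth muscle actin was lower in the F2 vinclozolin group. Slow skeletal and cardiac troponin C (Tnnc1) was higher in the F1 vinclozolin group, where 1 array stood above the rest. The brighter probe set of cardiac troponin T (Tnnt2) and that of desmin (Des) passed no test, and Ckm and Myl4 were too dim to be tested.

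Sequence around the start of Acta1 and Actc1 is shown because the probe sets of the 8 genes that fell name actin genes. Whether Actc1 itself fell cannot be told, since its probe sets name Acta2 as well. Another reason is that serum response factor acts on muscle actin genes through a short element, the CArG box. Of the 8 genes, 6 had an entry in the RefSeq promoter table (GRCr8, from 250 bases before to 50 after the start of the gene, 300 bases). The box was taken strictly as CC, 6 bases of A or T, and GG, searched on both strands. It was present in 2 of the 6, Acta1 and Actc1, and in 451 of all 27457 promoters (1.64%). The box begins at −94 in Acta1 and at 3 in Actc1, counted with the first base of the gene as 1, and is printed in capitals. Both are on the minus strand, at chr19:68784145-68784444 and chr3:121271778-121272077, and are written 5′ to 3′.
Acta1: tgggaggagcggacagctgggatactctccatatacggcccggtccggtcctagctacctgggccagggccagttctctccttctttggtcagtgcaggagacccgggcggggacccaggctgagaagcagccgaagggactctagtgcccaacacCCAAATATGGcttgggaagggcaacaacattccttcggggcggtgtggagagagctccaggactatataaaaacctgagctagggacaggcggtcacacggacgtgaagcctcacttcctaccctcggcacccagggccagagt
Actc1: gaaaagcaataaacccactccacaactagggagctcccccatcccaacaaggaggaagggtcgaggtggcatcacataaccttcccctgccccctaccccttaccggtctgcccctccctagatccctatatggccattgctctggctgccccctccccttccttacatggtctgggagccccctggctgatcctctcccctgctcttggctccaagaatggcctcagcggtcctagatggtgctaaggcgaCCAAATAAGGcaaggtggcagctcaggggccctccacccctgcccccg
The box reads CCAAATATGG in Acta1 and CCAAATAAGG in Actc1. The strict pattern was absent from the Acta2 window and from those of Tnnt2, Myl4, Ckm and Des. Near matches were not counted: the Acta2 window holds ccctatatgg and ccttgtttgg, each 1 base off the pattern. The E-box CANNTG, on which MyoD family proteins act, was in 5 of the 6 windows, against 71.6% of all promoters, and a MEF2 site was in 0 of 6, against 3.37% of all promoters. These matches are descriptions of the letters and were not tied to the values.

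Arrays were close in trimmed mean, but every vinclozolin median lay below every control median. Array medians ran from a signal of 40.5 to 42.8 on vinclozolin arrays and from 44.5 to 47.1 on control arrays, while the 2% trimmed mean was near 125.03 on each. The signal has no unit, and the brightness of different probe sets cannot be compared as RNA amount. The ratio of 5′ to 3′ beta-actin signal, a measure of RNA integrity and labelling, was 0.260 ± 0.097 on vinclozolin arrays and 0.453 ± 0.018 on control arrays (SD, n = 6 each). By generation its vinclozolin mean was 0.171 in F1, 0.233 in F2 and 0.378 in F3, and no vinclozolin array reached the lowest control array (0.423). Fetal testis genes were bright: Cyp17a1, a steroidogenic enzyme, lay between 4014.8 and 4697.7 on vinclozolin arrays and between 3888.7 and 4109.5 on control arrays, and Amh, the Sertoli cell hormone, between 2396.6 and 3417.8 on vinclozolin arrays and between 2894.1 and 3230.8 on control arrays.

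Of the 12 probe sets, 6 passed the limit on dim signals, which left out the lowest 30% of all probe sets (below a signal of about 14.8). They were 1 each of Acta1, Tnnc1, Tnnt2 and Des and 2 shared by Actc1 and Acta2. Each was tested with limma on log2(signal + 16), with p-values adjusted over all 21729 probe sets tested, and an adjusted p under 0.05 was called. For each probe set all 6 groups shared 1 estimate of the spread, because each group had 2 arrays. Its SE was thus the same in F1, F2 and F3 and does not give the spread of a single group. Leaving out an array of 1 generation could therefore change a call in another. A log2 difference is vinclozolin minus control, and since 16 is added to each signal, the change of a dim probe set is understated.

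**Figure D1:**
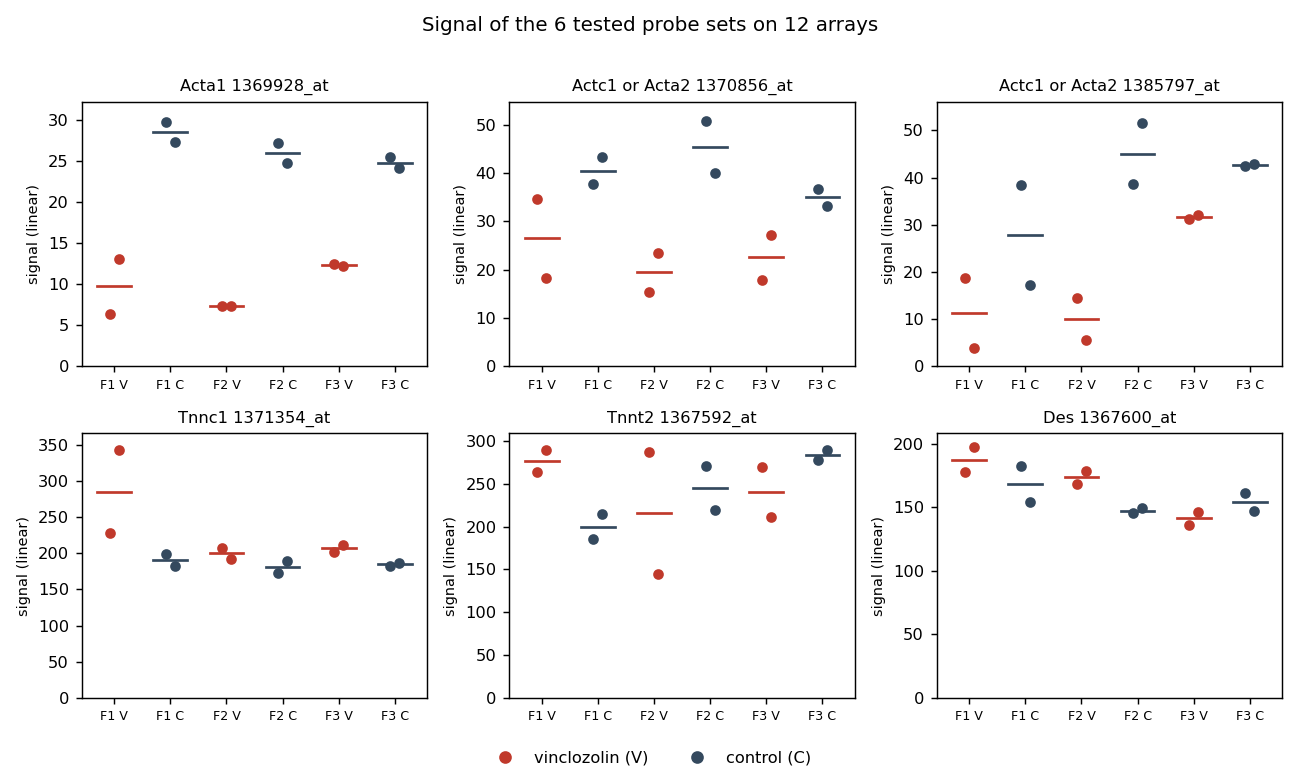
Linear signal (y axis) of the 6 tested probe sets in each of 6 groups (x axis; V, vinclozolin; C, control), with a point for each of 12 arrays and a line at the mean of the 2 arrays of a group. Acta1 lay between 6.4 and 13.1 on vinclozolin arrays and between 24.1 and 29.8 on control arrays, and the Tnnc1 value of 343.2 on 1 F1 vinclozolin array stands apart.

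Acta1 (1369928_at) encodes the actin of adult skeletal thin filaments. Its signal was 6.4 and 13.1 in F1 vinclozolin testes, against 29.8 and 27.3 in F1 controls. It was 7.4 and 7.3 in F2 vinclozolin testes, against 27.2 and 24.7 in F2 controls, and 12.5 and 12.2 in F3 vinclozolin testes, against 25.5 and 24.1 in F3 controls. The lineages did not overlap in any generation, and all vinclozolin arrays were below the limit for dim signals while all control arrays were above it, so that Acta1 was tested only by virtue of its control values. Across the 6 groups the order of the means was F2 vinclozolin (7.35), F1 vinclozolin (9.75), F3 vinclozolin (12.4), F3 control (24.8), F2 control (26) and F1 control (28.6). The 3 vinclozolin groups could not be ordered beyond their spread, since the F1 pair spanned the other two groups, and the control groups did not differ by the F test (adjusted p = 1, unadjusted p = 0.800).

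Acta1 fell by 0.80 on the log2 scale in F1 (SE 0.19, limma adjusted p = 0.00734) and by 0.84 in F2 (SE 0.19, adjusted p = 0.00930). In F3 the difference was −0.53 ± 0.19 (SE), which was not called (adjusted p = 0.154). The mean of the 3 differences was −0.72 ± 0.11 (SE, 95% interval −0.96 to −0.49, adjusted p = 1.73e-04). The size depended on the constant added before the log: the mean difference was −1.39 with 1 added and −0.29 with 64 added, and it was called with both. Single arrays decided the calls within a generation: the F1 call was lost without F1 control replicate 1 (−0.76, adjusted p = 0.0602), and the F2 call without F2 control replicate 1 or 2 or F2 vinclozolin replicate 2 (adjusted p = 0.0760, 0.0505 and 0.0540). The mean was called in all 12 fits that left out 1 array (adjusted p at most 0.00121). The size of the fall was not shown to differ between generations (F test, adjusted p = 0.721). In bulk RNA of pooled testes, fewer cells of a type and less RNA per cell cannot be told apart. With the beta-actin ratio as a covariate the mean difference was −1.33 and was not called (adjusted p = 0.405).

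Actc1, the actin of cardiac and embryonic skeletal muscle, was seen only together with Acta2. On the brighter shared probe set, 1370856_at, the signal was 34.7 and 18.3 in F1 vinclozolin testes, against 37.7 and 43.4 in F1 controls. It was 15.4 and 23.5 in F2 vinclozolin testes, against 50.9 and 40 in F2 controls, and 17.9 and 27.2 in F3 vinclozolin testes, against 36.7 and 33.3 in F3 controls. Within each generation the vinclozolin pair lay below the control pair, but the highest vinclozolin value (34.7, F1) overlapped the lowest control value (33.3, F3). Here and below, the share of all tested probe sets whose pairs part within a generation was not counted, so nothing is read from such order. The probe set fell by 0.80 in F2 (SE 0.21, adjusted p = 0.0220) and by 0.55 over the mean of the generations (SE 0.12, adjusted p = 0.00319). The F1 and F3 differences of −0.44 ± 0.21 and −0.41 ± 0.21 (SE) were not called (adjusted p = 0.159 and 0.327). The F2 call was lost without F2 control replicate 1 or 2 or F2 vinclozolin replicate 1 (adjusted p = 0.173, 0.0597 and 0.121), and an F1 call appeared without F1 vinclozolin replicate 1 (−0.72, adjusted p = 0.0273). Without the F2 generation the mean difference was −0.43 and was no longer called (adjusted p = 0.0644).

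The second shared probe set, 1385797_at, gave 18.7 and 3.8 in F1 vinclozolin testes, against 38.5 and 17.2 in F1 controls. It gave 14.5 and 5.6 in F2 vinclozolin testes, against 38.6 and 51.5 in F2 controls, and 31.2 and 32.0 in F3 vinclozolin testes, against 42.4 and 42.9 in F3 controls. The pairs overlapped in F1 and were apart in F2 and F3. It fell by 1.24 in F2 (SE 0.28, adjusted p = 0.00824) and by 0.75 over the mean (SE 0.16, adjusted p = 0.00227), while F1 (−0.70 ± 0.28, SE) and F3 (−0.30 ± 0.28, SE) were not called (adjusted p = 0.0834 and 0.622). The F2 call was lost without F2 control replicate 2 (adjusted p = 0.0853) or F2 vinclozolin replicate 2 (adjusted p = 0.108). An F1 call appeared without F1 control replicate 2 (−1.06, adjusted p = 0.0416), without F1 vinclozolin replicate 1 (−1.10, adjusted p = 0.00938) and with a replicate block (−0.70, adjusted p = 0.0332). Without the F2 generation the mean difference was −0.50 (adjusted p = 0.0934), and with the beta-actin ratio as a covariate it turned to 1.09 (adjusted p = 0.546).

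The probe set annotated to Acta2 alone, 1370857_at, was set beside these because the shared probe sets name that gene too. It gave 303.9 and 273.4 in F1 vinclozolin testes, against 457.6 and 492.7 in F1 controls. It gave 254.3 and 274.0 in F2 vinclozolin testes, against 470.4 and 467.4 in F2 controls, and 307.2 and 335.3 in F3 vinclozolin testes, against 468.1 and 483.8 in F3 controls. All vinclozolin values lay below all control values, as at 7.73% of all tested probe sets. Acta2 was called lower in every generation (−0.69, −0.79 and −0.55 in F1, F2 and F3, each with SE 0.10, adjusted p = 1.57e-04, 1.52e-04 and 0.00735). With the beta-actin ratio as a covariate the F1, F2 and mean differences of Acta2 were −0.60, −0.74 and −0.62 and were not called (adjusted p = 0.673, 0.315 and 0.421), while F3 was (−0.53, adjusted p = 0.0478). The F3 call was lost without F3 control replicate 1 or 2 or F3 vinclozolin replicate 1 (adjusted p = 0.0865, 0.122 and 0.0763). Over the 12 arrays its log2 values had a Pearson r of 0.94 with Acta1 (Spearman rho 0.73), 0.86 with 1370856_at (rho 0.79) and 0.74 with 1385797_at (rho 0.68), which all carry the same lineage difference. Which of the actin genes the shared probe sets read on these arrays was not tested.

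Tnnc1 (1371354_at), the calcium sensor of slow skeletal and cardiac muscle, gave 227.4 and 343.2 in F1 vinclozolin testes, against 198.7 and 182.3 in F1 controls. It gave 207.8 and 192.3 in F2 vinclozolin testes, against 173.2 and 189.5 in F2 controls, and 202.1 and 211.4 in F3 vinclozolin testes, against 182.8 and 186.5 in F3 controls. Within each generation both vinclozolin values lay above both control values, and the highest of the 12 was F1 vinclozolin replicate 2. Over all 12 arrays the lineages overlapped (192.3 in F2 vinclozolin, 198.7 in F1 control). The share of all tested probe sets that part within each generation was not counted, so nothing is read from this order. Tnnc1 rose by 0.52 in F1 (SE 0.15, adjusted p = 0.0178). The F2 and F3 differences were 0.13 and 0.15 (SE 0.15 each, 95% intervals −0.18 to 0.44 and −0.16 to 0.46) and were not called (adjusted p = 0.601 and 0.642). The mean of the 3 was 0.27 ± 0.08 (SE, adjusted p = 0.0233). Without F1 vinclozolin replicate 2 the F1 difference was 0.24 (adjusted p = 0.169), and without F1 control replicate 1 or 2 it was 0.58 or 0.46 (adjusted p = 0.0573 or 0.129). Without the F1 generation the mean was 0.14 (adjusted p = 0.154). The mean lost its call in 6 of the 12 fits that left out 1 array, with adjusted p between 0.0501 and 0.0685: without F1 control replicate 2, F2 control replicate 1, F3 control replicate 1 or 2, F2 vinclozolin replicate 1 or F3 vinclozolin replicate 2. With the beta-actin ratio as a covariate the F1 difference turned to −0.70 (adjusted p = 0.729).

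Tnnt2, which anchors troponin to tropomyosin in the heart and in embryonic skeletal muscle, had 2 probe sets. On 1367592_at it gave 264.2 and 289.7 in F1 vinclozolin testes, against 185.1 and 214.6 in F1 controls. It gave 286.8 and 145.0 in F2 vinclozolin testes, against 270.3 and 219.4 in F2 controls, and 269.9 and 210.7 in F3 vinclozolin testes, against 278.0 and 289.8 in F3 controls. The vinclozolin pair lay above the control pair in F1, spanned it in F2 and lay below it in F3. None of these differences was called: they were 0.44, −0.23 and −0.24 (SE 0.21 each, adjusted p = 0.149, 0.508 and 0.608), and neither was their dependence on generation (F test, adjusted p = 0.314). The mean difference was −0.01 with a 95% interval of −0.27 to 0.25. The F2 value rested on the array with 145.0, and without F2 vinclozolin replicate 1, the other array of that pair, the F2 difference was −0.69 and was called (adjusted p = 0.0154). The F1 difference of 0.44 was called with a replicate block (adjusted p = 0.0399) and without F2 vinclozolin replicate 1 or 2 (adjusted p = 0.0298 or 0.0291).

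Des (1367600_at), the intermediate filament protein of striated and smooth muscle, gave 177.6 and 197.3 in F1 vinclozolin testes, against 182.4 and 154.4 in F1 controls. It gave 168.6 and 178.9 in F2 vinclozolin testes, against 145.4 and 149.5 in F2 controls, and 136.4 and 146.2 in F3 vinclozolin testes, against 161.4 and 147.4 in F3 controls. The pairs overlapped in F1, the vinclozolin pair was the higher in F2 and the lower in F3. The differences were 0.14, 0.21 and −0.11 (SE 0.12 each) and none was called (adjusted p = 0.408, 0.239 and 0.659). The mean was 0.08, with a 95% interval of −0.06 to 0.22.

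**Figure D2:**
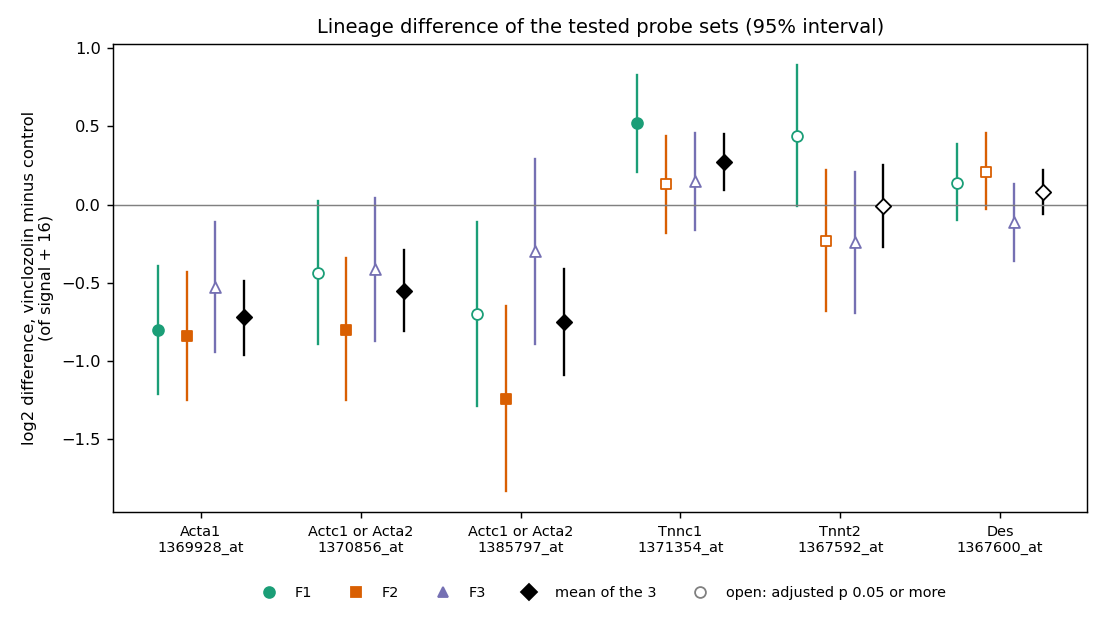
Log2 difference of signal + 16, vinclozolin minus control (y axis), with 95% intervals, for the 6 tested probe sets (x axis) in F1, F2, F3 and as the mean of the 3. Filled symbols have an adjusted p under 0.05: Acta1 in F1, F2 and the mean, both shared actin probe sets in F2 and the mean, and Tnnc1 in F1 and the mean.

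Counted together, in F1 1 of the 6 tested probe sets was called lower and 1 higher, where 13.7% and 9.41% of all 21729 were (23.1% in either direction). In F2 3 were called lower and 0 higher, against 9.65% and 4.70% of all (14.3% in either direction). In F3 0 were called in either direction, against 2.06% lower and 1.05% higher (3.11% in either direction), and 1 of the 6 (Acta1) had an unadjusted p under 0.05 in limma, against 18.3% of all. In the mean of the generations 3 were called lower and 1 higher, against 19.2% and 14.1% (33.3% in either direction). The median difference of the 6 was −0.15 in F1, −0.52 in F2, −0.27 in F3 and −0.28 in the mean, where that of all tested probe sets was −0.01 each time. Acta1 was the 1 of 6 with all vinclozolin arrays below all control arrays, where 7.73% of all tested probe sets were, and nothing is read from that share, since Acta1 entered the 6 through its control values. The 2 shared actin probe sets are annotated to the same genes, and only probe sets bright enough to be tested are in these counts. Acta1 is in the counts and medians through its control values. The F2 vinclozolin values of 1385797_at, 14.5 and 5.6, also lay under the limit of about 14.8. Nothing is therefore read from the counts of lower calls or from the medians. The dependence on generation was called in 0 of the 6 (unadjusted p under 0.05 in 0), against 2.60% of all, and differences among the control groups in 0 of the 6 (unadjusted in 0), against 0% of all (unadjusted in 2.38%).

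The other 6 probe sets were dim. Ckm (1367626_at), the muscle creatine kinase, gave 15.3 and 2.5 in F1 vinclozolin testes, against 6.4 and 1.1 in F1 controls. It gave 3.1 and 18.7 in F2 vinclozolin testes, against 18.5 and 2.0 in F2 controls, and 10.1 and 13.7 in F3 vinclozolin testes, against 17.1 and 2.8 in F3 controls. Replicates of 1 group differed as much as the lineages did, and in a fit with no limit on dim signals Ckm gave 0.30, 0.05 and 0.16 in F1, F2 and F3 (SE 0.38 each, adjusted p = 0.680, 0.965 and 0.912). Myl4 (1371293_at), the light chain of atrial and embryonic myosin, gave 12.6 and 13.1 in F1 vinclozolin testes, against 17.0 and 19.8 in F1 controls. It gave 11.1 and 3.9 in F2 vinclozolin testes, against 9.0 and 17.0 in F2 controls, and 17.9 and 23.9 in F3 vinclozolin testes, against 11.1 and 13.6 in F3 controls. The vinclozolin pair was thus the lower in F1 and the higher in F3. In the fit with no limit the differences were −0.25, −0.31 and 0.38 (SE 0.20 each) and none was called (adjusted p = 0.483, 0.423 and 0.441). With a mean signal of 14.2 Myl4 lay just under the limit, and Acta1, with 18.1, was the dimmest of those above it.

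The dimmer Tnnt2 probe set, 1390061_at, ranged from 5.5 to 11.4 on vinclozolin arrays and from 0.8 to 11.5 on control arrays, so the lineages overlapped. Of the 3 dim probe sets shared by Actc1 and Acta2, 1374352_at lay between 1.2 and 2.3 on vinclozolin arrays and between 2.2 and 17.2 on control arrays. In the fit with no limit it was called lower in F1 (−0.89 ± 0.16, SE, adjusted p = 0.00247) and in the mean (−0.58 ± 0.09, SE, adjusted p = 5.97e-04). 1374353_x_at lay between 0.7 and 7.0 on vinclozolin arrays and between 2.7 and 19.2 on control arrays (mean difference −0.35, adjusted p = 0.113), and 1381861_x_at between 1.8 and 7.6 on vinclozolin arrays and between 0.8 and 3.8 on control arrays (mean difference 0.20, adjusted p = 0.185). With no detection calls, whether such signals exceed background on an array was not settled.

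**Figure D3:**
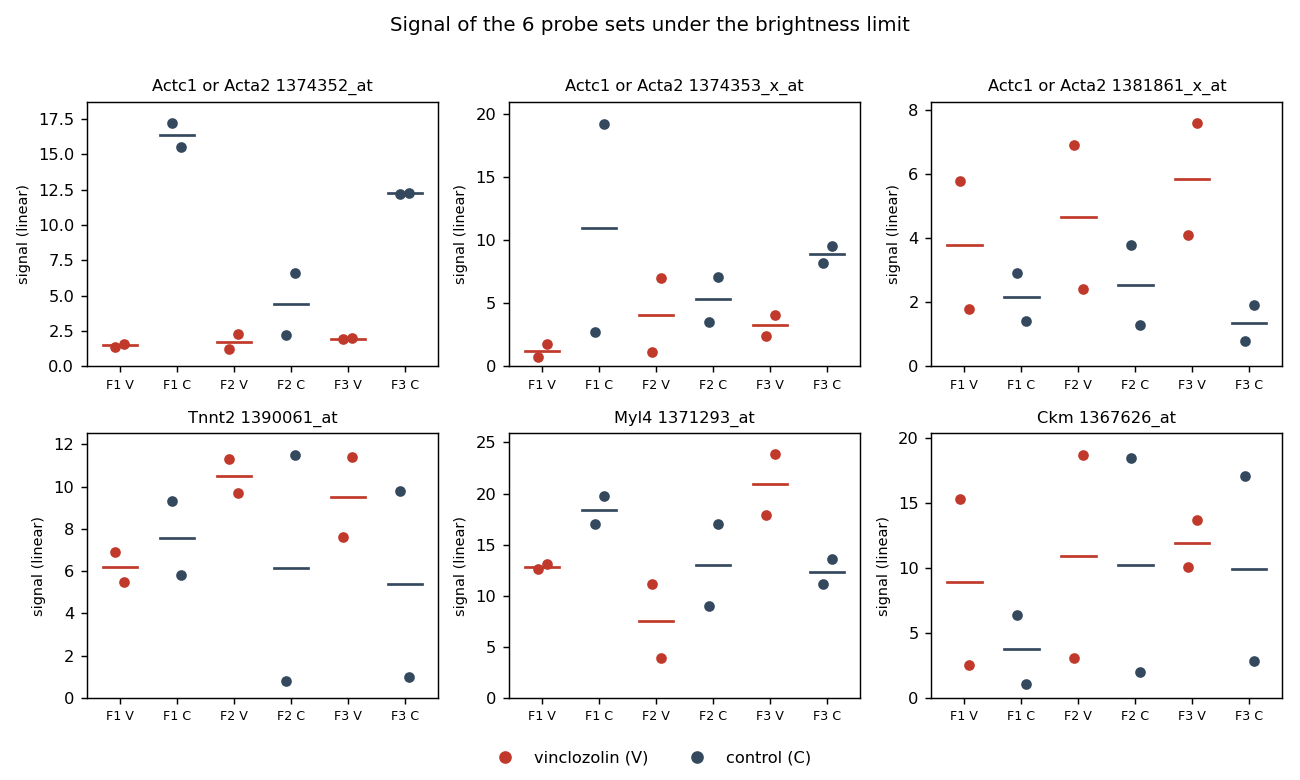
Linear signal (y axis, its own scale in each panel) of the 6 probe sets under the limit for dim signals, in 6 groups (x axis; V, vinclozolin; C, control), with a point for each array and a line at the group mean. Ckm spans 2.5 to 18.7 on vinclozolin arrays and 1.1 to 18.5 on control arrays, and all values shown are at most 23.9.

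Another 7 lists of striated muscle genes held 94 genes with 135 probe sets of their own, and most of these were dim as well. The limit left out 71 of the 135 (52.6%), against 30% of all probe sets, and their median signal was 14.9, against 44.1 for all. Some genes by which skeletal muscle is recognised, picked here after their values were seen, were among the dim ones. Myod1, the myogenic regulator, ranged from 0.4 to 7.6 on vinclozolin arrays and from 1.1 to 11.1 on control arrays. Mb, the oxygen store myoglobin, ranged from 1.8 to 9.2 on vinclozolin arrays and from 1.2 to 5.0 on control arrays, and Pgam2, the muscle phosphoglycerate mutase, from 0.7 to 1.5 on vinclozolin arrays and from 0.6 to 1.1 on control arrays. Of the 21 probe sets of the cardiac list, 8 passed the limit. Among the others, Myl7, the atrial light chain, ranged from 0.6 to 13 on vinclozolin arrays and from 1.9 to 6.5 on control arrays, and Nppa, atrial natriuretic peptide, from 2.2 to 21.0 on vinclozolin arrays and from 3.6 to 16.6 on control arrays. Myog, which drives muscle differentiation, was bright enough to be tested and ranged from 9.8 to 45.5 on vinclozolin arrays and from 11.4 to 46.6 on control arrays. No value of these probe sets or of the 12 above was exactly 0. Other probe sets of the same lists were bright, among them 1368093_at of Myh6 (383 to 621.5 on vinclozolin arrays and 336.3 to 404.8 on control arrays). The lists thus held dim and bright probe sets, and the name striated muscle is that of the list.

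Of the 64 tested probe sets of these lists, 4 were called lower and 2 higher in F1 (6.25% and 3.12%), 5 lower and 1 higher in F2 (7.81% and 1.56%) and 0 in F3, beside the shares of all probe sets given above. Their medians were 0.09, −0.02 and 0.02 in F1, F2 and F3. In the mean of the generations 7 were called lower and 6 higher (10.9% and 9.38%, median 0.01). Median centring of the arrays turned that balance, with 4 lower and 14 higher.

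Values that follow are means of the 3 generation differences, and the count of each list stands beside 19.2% called lower and 14.1% called higher among all tested probe sets. Thick filament genes were called lower at 3 of 12 tested probe sets and higher at 2. For Myh6, the cardiac alpha-myosin heavy chain, the probe sets differed: 1387049_at lay between 7.7 and 24.9 on vinclozolin arrays and between 32.7 and 43.2 on control arrays (−0.87 ± 0.13, SE, adjusted p = 1.22e-04), while 1368093_at lay between 383 and 621.5 on vinclozolin arrays and between 336.3 and 404.8 on control arrays (0.43 ± 0.09, SE, adjusted p = 0.00133). Like Acta1, 1387049_at was tested by virtue of its control values, since its mean signal on vinclozolin arrays was 13.4. Without the F2 generation the difference at 1368093_at was 0.28 and was not called (adjusted p = 0.0992). Probe sets annotated to Myh1, an adult fast myosin heavy chain, were bright, with mean signals of 540 to 1260 at the 5 on the array, and 2 of them fell. The larger fall, at 1377720_x_at, was −0.25 ± 0.06 (SE, adjusted p = 0.00415), and it was not called after median centring (−0.15, adjusted p = 0.0731) or without F2 (−0.14, adjusted p = 0.189). The call of 1377719_a_at (−0.18) was lost in 7 of the 12 fits that left out 1 array (adjusted p up to 0.0844). Another, 1383162_at, was called higher in F1 (0.29 ± 0.08, SE, adjusted p = 0.0213) and gave 0.01 in the mean.

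Thin filament and troponin genes were called higher at 1 of 8 and lower at 0. That was Tnni1 (1386873_at), the slow skeletal troponin I, between 97.5 and 168.3 on vinclozolin arrays and between 72.6 and 86.3 on control arrays (0.53 ± 0.10, SE, adjusted p = 7.40e-04). All vinclozolin values lay above all control values at this probe set, as at 5.52% of all tested probe sets. It was called in F1 and not in F2 or F3 (adjusted p = 0.0654 and 0.240). The second Tnni1 probe set, 1371339_at, gave 0.13 ± 0.08 (SE, adjusted p = 0.229), and its lineages overlapped, at 81.7 to 117.4 on vinclozolin arrays and 73.6 to 100.3 on control arrays. Z-disc and titin genes were called lower at 1 of 12 and higher at 1. Flnc (1396085_at), the muscle filamin, lay between 49.8 and 106.6 on vinclozolin arrays and between 157.1 and 205.7 on control arrays (−1.01 ± 0.13, SE, adjusted p = 3.11e-05), and Pdlim3, a Z-disc adaptor, rose by less (0.25 ± 0.06, SE, adjusted p = 0.00616). The other Flnc probe set, 1388496_at, was not among those called in the mean.

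Genes of calcium handling were called higher at 1 of 11 and lower at 0. The 1 was Pln (1370157_at), phospholamban, the brake on the calcium pump (0.25 ± 0.09, SE, adjusted p = 0.0408), whose call was lost in 7 of 12 fits without 1 array (adjusted p up to 0.140). The other Pln probe sets, 1384689_at and 1388876_at, were not among those called. Genes of muscle energy supply were called lower at 3 of 11 and higher at 1. Pfkm (1386961_at), the muscle phosphofructokinase, gave −0.61 ± 0.15 (SE, adjusted p = 0.00505), and Pygm (1383072_at), the muscle glycogen phosphorylase, −0.48 ± 0.12 (SE, adjusted p = 0.00653). The other Pfkm probe sets, 1367864_at and 1384632_at, and 1370982_at of Pygm were not called in any single generation. Fabp3, a fatty acid carrier of heart and muscle, rose (0.33 ± 0.08, SE, adjusted p = 0.00383). Myogenic regulators and junction genes were called at 0 of 8 by limma, with 0 of 8 at an unadjusted p under 0.05, where 43% of all tested probe sets were. Some calls stood in 1 generation: Tmod1, which caps the thin filament, gave −0.66 ± 0.20 (SE, adjusted p = 0.0401) and Mef2c (1373410_at), a partner of the MyoD family, −0.43 ± 0.13 (SE, adjusted p = 0.0403) in F2. They were lost in 7 and 8 of the 12 fits without 1 array (adjusted p up to 0.210 and 0.341). Pygm at 1375476_at gave −0.95 ± 0.27 (SE, adjusted p = 0.0173) in F1, lost in 3 of the 12 (adjusted p up to 0.204). None of these probe sets was called in another generation or in the mean. Tmod1 gave 0.35 in F1 and 0.19 in F3, and Mef2c −0.18 in F1 and 0.30 in F3. Pygm at 1375476_at gave −0.29 in F2 and 0.17 in F3. Their dependence on generation was not called (F test, adjusted p = 0.111, 0.0942 and 0.231). The second probe sets of Tmod1 and Mef2c, 1387370_at and 1372332_at, were not among those called in F2. The cardiac list shared genes with the others and was called at the same 2 Myh6 probe sets, of 8 tested.

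Smooth muscle genes were called lower at 4 of 15 tested probe sets and higher at 1 (median −0.12). Beside Acta2, those that fell were Mylk (1384818_at), myosin light chain kinase (−0.68 ± 0.11, SE, adjusted p = 2.26e-04), Myocd, the coactivator of serum response factor (−0.65 ± 0.08, SE, adjusted p = 4.31e-05), and Smtn (1396885_at), smoothelin (−0.52 ± 0.13, SE, adjusted p = 0.00645). The other probe sets of Mylk and Smtn, 1371541_at and 1372684_at, were not among those called in the mean. Myocd was called lower in F1 and F2 (−0.94 and −1.05, adjusted p = 3.57e-04 and 3.32e-04) and gave 0.06 in F3 (adjusted p = 0.884). With the beta-actin ratio as a covariate the means of Mylk and Myocd were −0.17 and −0.56 and were not called (adjusted p = 0.934 and 0.640). Myl9, the smooth muscle myosin light chain, rose (0.29 ± 0.04, SE, adjusted p = 1.85e-04). The summed signal of the list ranged from 3495.2 to 3989.9 on vinclozolin arrays and from 3658.6 to 3830.2 on control arrays, so its total did not separate the lineages.

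**Figure D4:**
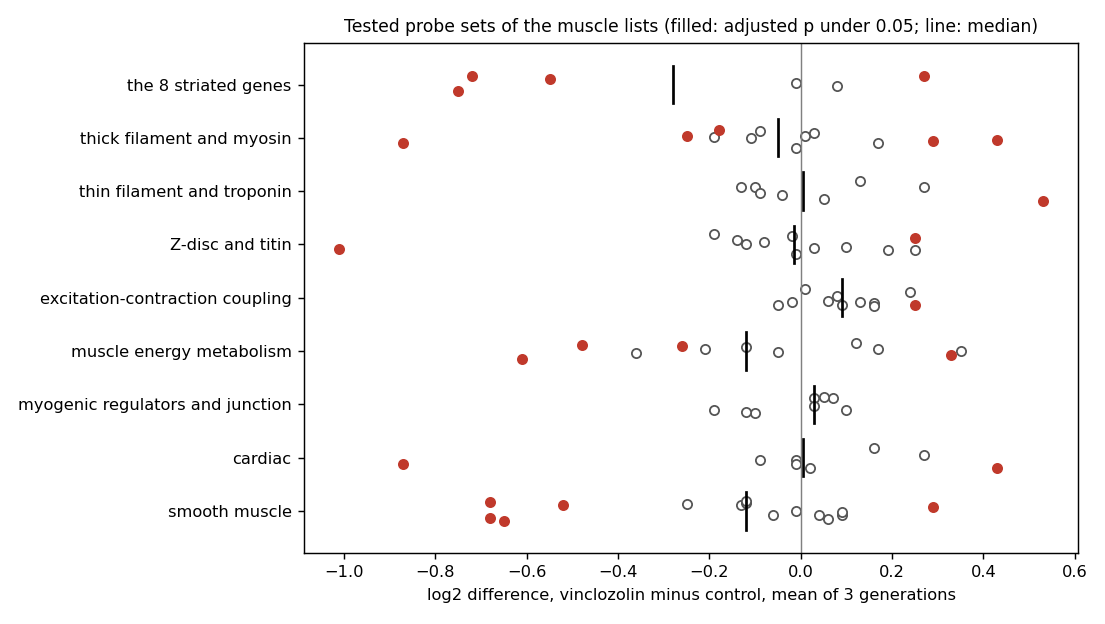
Mean log2 difference over 3 generations, vinclozolin minus control (x axis), of each tested probe set of the 8 genes and of 8 other muscle lists (y axis; points are spread at random in height). Filled points have an adjusted p under 0.05 and the black line is the median, which is −0.28 for the 6 probe sets of the 8 genes and between −0.12 and 0.09 for the other lists. Acta1 is among the 6 through its control values.

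Markers of other cells that a dissected testis could carry were read on the same arrays. Summed signal of the erythroid list ranged from 12549.2 to 15440.7 on vinclozolin arrays and from 10225.3 to 11854.7 on control arrays. It was led by Hbb, 5525.5 to 7345.5 on vinclozolin arrays and 4429.5 to 4952.5 on control arrays. The liver list ranged from 117.3 to 236.6 on vinclozolin arrays and from 108.2 to 164.4 on control arrays, with Ttr at most 99.2 and Afp at most 23.9. The nerve list ranged from 307.8 to 420.7 on vinclozolin arrays and from 309.2 to 352.3 on control arrays, led by Nefm. The cartilage list ranged from 402.2 to 481.0 on vinclozolin arrays and from 460.9 to 527.3 on control arrays, led by Col2a1, and the list of mesonephros and epithelium from 1567.0 to 1925.9 on vinclozolin arrays and from 1553.5 to 1715.5 on control arrays, led by Epcam. Of these 5 sums, that of the erythroid list did not overlap between the lineages. The sum of the fetal testis list was also apart, at 15562.2 to 18157.5 on vinclozolin arrays and 14579.2 to 15387.7 on control arrays. How often sums part in this way was not counted, and a sum follows its brightest probe sets. In the mean of the generations 5 of 7 tested erythroid probe sets were called higher and 1 lower. In the cartilage list 3 of 9 were called lower and 0 higher. In the nerve list 1 of 6 was called higher, Nefm (0.34 ± 0.08, SE, limma adjusted p = 0.00556), and 0 lower. In the other 2 lists 0 were called. Among all tested probe sets 19.2% were called lower and 14.1% higher. The part of these cells in the differences of the muscle genes was not tested, and the beta-actin ratio and lineage cannot be told apart.

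Among themselves the genes were compared by 1 tested probe set each of Acta1, the shared actins, Tnnc1, Tnnt2 and Des, as a description over 12 arrays that share lineage and scaling. Over the 12 arrays Pearson's r was 0.74 between Acta1 and the shared actin probe set (Spearman rho 0.71), 0.63 between Tnnc1 and Des (rho 0.41) and −0.43 between Acta1 and Tnnc1 (rho −0.66). Tnnt2 had r between −0.19 and 0.26 with the others. Once group means were taken out, r was −0.64 between Acta1 and the shared actin probe set and 0.88 between Acta1 and Tnnc1. These r values rest largely on 1 pair of arrays, the F1 vinclozolin pair, where the Acta1 replicates differed most. In that pair Acta1 was 6.4 and 13.1, Tnnc1 227.4 and 343.2, and the shared actin probe set 34.7 and 18.3. The array with the higher Acta1 of a group also had the higher shared actin signal in 2 of 6 groups and the higher Tnnc1 signal in 3 of 6. The probe sets most like each gene over the 12 arrays were picked as the highest r among all named probe sets tested. They were 1379715_at of U2surp for Acta1 (r = 0.990, rho = 0.944), 1373678_at of Clic4 for the shared actin probe set (r = 0.951, rho = 0.944) and 1388340_at of Pclaf for Tnnc1 (r = 0.978, rho = 0.867). For Tnnt2 it was 1383343_at of Zfp758 (r = 0.906, rho = 0.909) and for Des 1390133_at of Bnip2 (r = 0.923, rho = 0.909). The mean z-score of the 5 was most like Smox (r = 0.933, rho = 0.902), Camta1 (r = 0.923, rho = 0.825) and Ints13 (r = 0.922, rho = 0.804), and 1 of its 10 closest was a muscle gene by annotation, Myh1 (1383161_a_at, r = 0.889, rho = 0.664).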

How the data were processed

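The authors deposited 1 intensity on a linear scale for each of 31099 probe sets and 12 arrays, between 0 and 9534.9. Per the labels' protocols the RNA was extracted with Trizol, labelled with biotin and hybridised by standard Affymetrix procedures. The software that summarised the probes is not stated, and the equal trimmed means of the deposited intensities show that arrays had been scaled to 1 level. No detection calls were used. The 57 Affymetrix control probe sets were left out of the tests. Values were transformed as log2(value + 16), the lowest 30% by mean were left out (9313 probe sets), and 21729 were tested.

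All 6 group means were fitted at once over the 12 arrays (limma 3.58.1, R 4.3.3, trended eBayes, 6 residual and 8.97 prior degrees of freedom). Contrasts set vinclozolin against control within F1, F2 and F3 and averaged these, and F tests covered their dependence on generation and the control groups. Adjustment was by Benjamini-Hochberg. No single comparison of 2 and 2 arrays could give less than p = 0.333 in an exact 2-sided permutation test. Symbols came from the array annotation: 20826 probe sets had 1 symbol, 436 several and 9780 none. The code was tested on simulated data. The genes, the muscle and cell type lists, and the rules were chosen with earlier results of these data known. Named genes were, for each muscle list, up to 4 called probe sets by size; for likeness, the highest Pearson r; Myl9, the markers Myod1, Mb, Pgam2, Myl7, Nppa and Myog, and the array values of Acta2 were chosen after their values were seen. The alternatives tried were other added constants and brightness limits, other scalings, array weights, a beta-actin covariate, no trend, fewer arrays and a replicate block.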

Additional observations from a re-analysis of the deposited data

Results flagged for a closer look

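Myl4 (1371293_at) was below its controls on both vinclozolin arrays in F1 (12.6 and 13.1 against 17.0 and 19.8) and above them on both in F3 (17.9 and 23.9 against 11.1 and 13.6). The difference between generations did not pass the F test in the fit with no limit on dim signals (limma adjusted p = 0.403), and all of these signals are dim.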

How the results depend on the processing

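Acta1 in the mean of the generations was called lower in 24 of 25 settings, the exception being the beta-actin covariate (−1.33, adjusted p = 0.405). With that covariate none of the 6 tested probe sets was called in F1, F2 or the mean (0 higher and 0 lower), nor were any of the 64 other striated probe sets (0 and 0), and these called values changed sign: Tnnc1 in F1 and the mean (−0.70 and −0.48), shared actin 1385797_at in F2 and the mean (0.71 and 1.09), Myh6 1387049_at (0.34 and 0.04 in F1 and the mean), Tnni1 (−0.96 and −0.50), Pfkm (2.43 and 1.46), Smtn (1.55 and 0.89), Flnc (0.28) and Pygm (0.27) in F1, and Pdlim3 (−0.02), Pln (−0.04) and Fabp3 (−0.61) in the mean. Values of the 6 that were not called also changed sign, among them 1385797_at in F1 (2.29), 1370856_at in F1 (0.01), Tnnc1 in F2 (−0.67), Tnnt2 in F2 (0.25) and Des in F1 (−0.27). The cause was not tested, and the ratio and lineage cannot be told apart. Only the 4 F1 arrays gave 0 higher and 0 lower of the 6 in F1. A stricter limit on dim signals removed the actins and left 3 probe sets, with 0 lower in F1, F2 and the mean; no limit gave 2 lower of 12 in F1. Without generation F1, F2 or F3 the mean gave 0 higher, and without F2 it gave 1 lower. Leaving out 1 array gave 0 to 2 higher and 0 to 3 lower in F1, 0 to 3 lower in F2, 0 to 1 higher and 3 lower in the mean, and 0 to 1 for the dependence on generation; in F3 it gave 0.

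Equal replicate numbers did not deviate together (correlations of −0.02, −0.04 and 0.03 in F1, F2 and F3), so these values gave no sign of pairing by number. Absence of pairing is not established by this. The replicate block gave 2 higher (Tnnt2 added) and 2 lower (1385797_at added) of the 6 in F1, changed no other count of the 6, and gave 1 lower of the 64 in F3. For the 64, the F1 counts of 2 higher and 4 lower became 7 higher (median centring), 1 higher (array weights, no trend), 0 higher and 2 lower (only the 4 F1 arrays) and 2 lower (stricter limit), and 1 to 5 higher and 2 to 6 lower without 1 array. The F2 counts of 1 and 5 became 5 higher (quantile normalization, cyclic loess), 7 higher and 2 lower (median centring), 4 higher (array weights), 3 higher (only the 4 F2 arrays), 3 lower (no trend), and 0 to 6 and 2 to 8 without 1 array. The F3 counts of 0 became 3 and 6 (array weights), 2 and 6 (only the 4 F3 arrays), 1 lower (1 added before the log, quantile normalization, cyclic loess), and 0 to 2 and 0 to 6 without 1 array. The mean counts of 6 and 7 became 12 higher (quantile normalization), 14 and 4 (median centring), 10 higher (cyclic loess), 2 and 4 (without F2), and 4 to 8 and 5 to 10 without 1 array. Dim signals and 2 arrays a group limit the precision.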
